A study of Mus musculus with 8 samples.

Results

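The potassium channel genes of the mouse nucleus accumbens (NAc) are described here, in adult mice that were or were not separated from their dams as pups. They were all genes whose array name begins with Kcn followed by a subfamily letter, without the antisense transcript Kcnq1ot1. This gave 94 genes of the 34741 names on the array, read by 142 probes of 60 bases, and the choice used no measured value. The array was hybridised with RNA from micropunches of the NAc, a ventral striatal region that takes part in motivation, of 8 male C3H/HeN mice (C3H/Hen in the labels). The 4 mice of the maternal separation (MS) group were taken from their dams every day between postnatal day 2 and day 14, while the dams met chronic unpredictable stress, and the 4 control mice were left with undisturbed dams. Both groups were weaned on day 21, had worked for sweetened milk in an operant task and were fasted before sampling. The labels do not state whether the mice of a group came from separate litters, so the p-values measure the spread between these samples. In each group 3 of 4 mice share the number before the point of their animal label (8 in controls, 7 in MS mice), no such number occurs in both groups, and its meaning is not stated.

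Potassium channels let potassium leave the cell, which sets the resting potential and ends each spike. Voltage-gated (Kv) channels are tetramers of alpha subunits. Those of the Kcnc genes (Kv3) open at strongly depolarised potentials and close quickly, so that fast-spiking neurons can fire at high rates, and those of the Kcna (Kv1) and Kcnd (Kv4) genes limit firing near threshold. Inward rectifiers (Kcnj) and K2P channels (Kcnk) act mainly near rest. In medium spiny neurons, the projection neurons of the NAc, inward rectifiers hold the membrane at a very negative resting potential.

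Each value is the log2 processed signal of a probe minus the 75th percentile of its array, so 0 stands for the level of that percentile. Differences are MS minus control on this scale, each with its standard error (SE) from limma and a p-value adjusted over all 33106 tested probes. The 8 arrays lay on 1 slide read in 1 scan, and the share of probes well above background ran from 57.3% to 69.7%. Control replicate 4 had the highest share. Of the 94 genes, 77 had a probe that could be tested, with 110 probes in all, and no channel spot was saturated. A gene is given by its brightest tested probe unless another is named, and levels of different probes are not compared.

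The findings rest most on the Kv3 genes, and on Kcnc1 the answer depends on which part of the transcript a probe reads. The first 30 bases of the probes of Kcnc1, Kcnc2, Kcnc4 and Kcnab3 are therefore shown in 5′ to 3′ direction, with the position of the probe in its transcript.
Kcnc1, base 1831 of variant B, shared with variant A: tgtctggagactcacgagcgcttcaacccc
Kcnc1, base 7686 of variant B: gccttgccgtcttgtacgacagactttttt
Kcnc1, base 3944 of variant A: gagattcgagcatgaaataaattttgtaac
Kcnc2, base 5613: tctacatagaaatctaaccatttcttggtc
Kcnc4, base 2610: gggggaatttcatttcttttgtgtgtctcc
Kcnab3, base 2190: gaagacttaaatctagaactagagtcacac

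The probes of Kcnc1 lie on mouse chromosome 7 at chr7:53682767-53682826 (base 1831), chr7:53688622-53688681 (base 7686) and chr7:53693712-53693771 (base 3944) of build mm9, all on the plus strand. By the annotation in the files, the probe at base 1831 matches variants A and B, the one at base 7686 variant B and the one at base 3944 variant A. The probes at bases 1831 and 7686 are 5855 bases apart in the genome and also in the transcript, so no intron lies between them. The probe of variant A lies further downstream. The other probes read mm9 chr10:111902778-111902837 for Kcnc2, mm9 chr3:107241564-107241623 for Kcnc4, and mm9 chr11:69146197-69146256 for Kcnab3. Whether these stretches are coding was not analysed here, since no transcript annotation of mm9 was used.

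The differences of the channel genes ran in both directions. Of the 77 tested genes, 40 were lower and 37 higher in sign in MS mice, with a median difference of -0.016, beside 0.0036 over all tested probes. The sign of that median turned with scaling by the array median (0.024, beside 0.043 over all probes), with probes well above background on all 8 arrays (0.018), and without control replicate 4 (0.005) or MS replicate 2 (0.0038). At the threshold of limma's adjusted p, 0 of 110 channel probes differed, where 1 of 33106 probes did (0.00302%), and the lowest adjusted p among channels was 0.101. Without adjustment, 34 of 110 channel probes (30.9%) had a limma p under 0.05, against 14.1% of all probes. Of these, 19 were lower in MS mice (17.3%, against 7.65% of all probes) and 15 higher (13.6%, against 6.47%). The values of both groups did not overlap for 19 channel probes (17.3%, against 8.7% of all), of which 11 were lower (10%, against 4.8%) and 8 higher (7.27%, against 3.9%). These shares describe the family and were not tested.

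**Figure D1:**
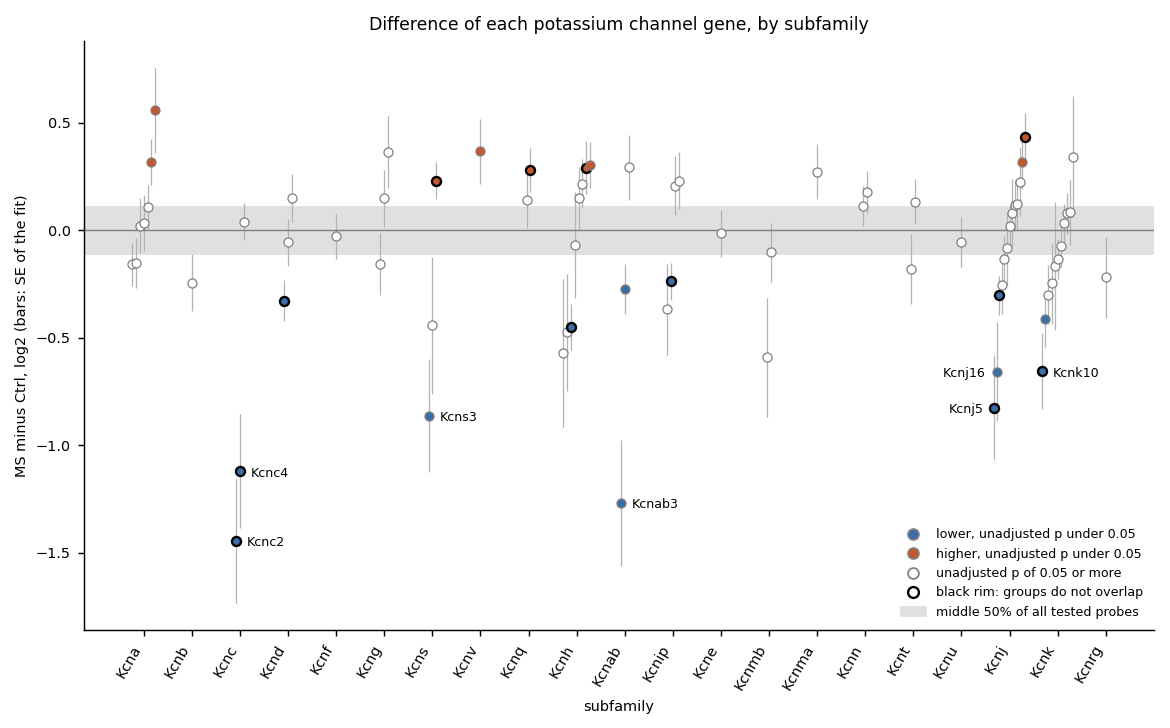
Difference between MS and control mice on the log2 scale (y axis) for 73 of the 77 tested channel genes by subfamily (x axis), 1 point per gene at its brightest tested probe with the SE of the fit, filled where the unadjusted p is under 0.05 and rimmed in black where the groups do not overlap. Kcnc2 (-1.44), Kcnab3 (-1.27) and Kcnc4 (-1.12) lie lowest, the highest gene is Kcna5 (0.56), and Kcnc1 appears near 0 because its brightest probe was 0.04.

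How many channel probes passed depended on the processing, and those that did were all lower in MS mice. With normexp background correction, 7 of 110 passed (6.36%, against 1.47% of all probes), namely both lower probes of Kcnc1 and those of Kcnc2, Kcnc4, Kcnab3, Kcnj5 and Kcns3. In the log2 values deposited by the authors, 4 of 105 passed (3.81%, against 1.2% of all), those of Kcnc2, Kcnab3 and, again, both of Kcnc1. With a variance trend and robust moderation, 2 of 110 passed (1.82%, against 1.53%), both of Kcnc1. With the number before the point of the animal label as a random block, 3 of 110 passed (2.73%, against 1.37%), those of Kcnc1 and Kcnc2. The estimated correlation between mice that share a number was negative (-0.11), and no number occurs in both groups. This setting therefore cannot allow for a shared origin of mice. Without control replicate 3, the Kcnc1 probe at base 1831 alone passed (0.909%, against 0.112%). Kcnc1, Kcnc2 and Kcnab3 belong to the genes that the study lists as changed, a list drawn from the same mice, so their differences are no independent evidence.

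The largest difference of the family was that of Kcnc2. This gene (Kv3.2) had log2 levels of 0.09, -0.01, -0.57 and 0.53 in control mice and -1.47, -2.07, -0.84 and -1.36 in MS mice (replicates 1 to 4, here and below). All MS mice were below all controls, with MS replicate 3 nearest to the controls and control replicate 3 nearest to the MS mice. The mean was 0.01 ± 0.45 for control and -1.44 ± 0.50 for MS mice (SD, n = 4). The difference was -1.44 (SE 0.29, limma adjusted p = 0.108), which puts the level 2.72-fold lower. Kcnc4 (Kv3.4) had levels of -0.35, -0.09, -0.58 and 0.48 in control mice and -1.32, -1.83, -0.88 and -0.99 in MS mice. Here too the groups did not overlap, control replicate 4 was highest, and the difference was -1.12 (SE 0.27, limma adjusted p = 0.139), or 2.17-fold.

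Kcnc1 (Kv3.1) differed between its probes. At base 1831 the levels were 1.38, 1.34, 1.01 and 1.497 in control mice and 0.69, 0.77, 0.84 and 0.65 in MS mice. All controls exceeded all MS mice there, with a difference of -0.57 (SE 0.11, limma adjusted p = 0.101). At base 3944, on variant A, they were 0.86, 0.66, 0.55 and 0.80 in control mice and -0.26, -0.25, 0.44 and -0.45 in MS mice. Again the groups did not overlap, although MS replicate 3 was close to control replicate 3, and the difference was -0.85 (SE 0.18, limma adjusted p = 0.117). At base 7686, the brightest of the 3 probes, the levels were 2.12, 2.00, 1.97 and 1.91 in control mice and 1.93, 2.08, 2.20 and 1.96 in MS mice. At this probe the groups overlapped and the difference was 0.04 (SE 0.08, limma adjusted p = 0.879). The mean difference over the 3 probes was -0.46. In each of the 10 alternatives that kept all mice the first and second probes stayed negative (-0.58 to -0.52 and -0.85 to -0.74), whereas the third stayed positive (0.028 to 0.081). The filters on dim probes, the moderation and the slide row or column blocks leave a difference unchanged by design. They therefore add nothing on the sign. Which transcripts the probes detect in this tissue was not tested.

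**Figure D2:**
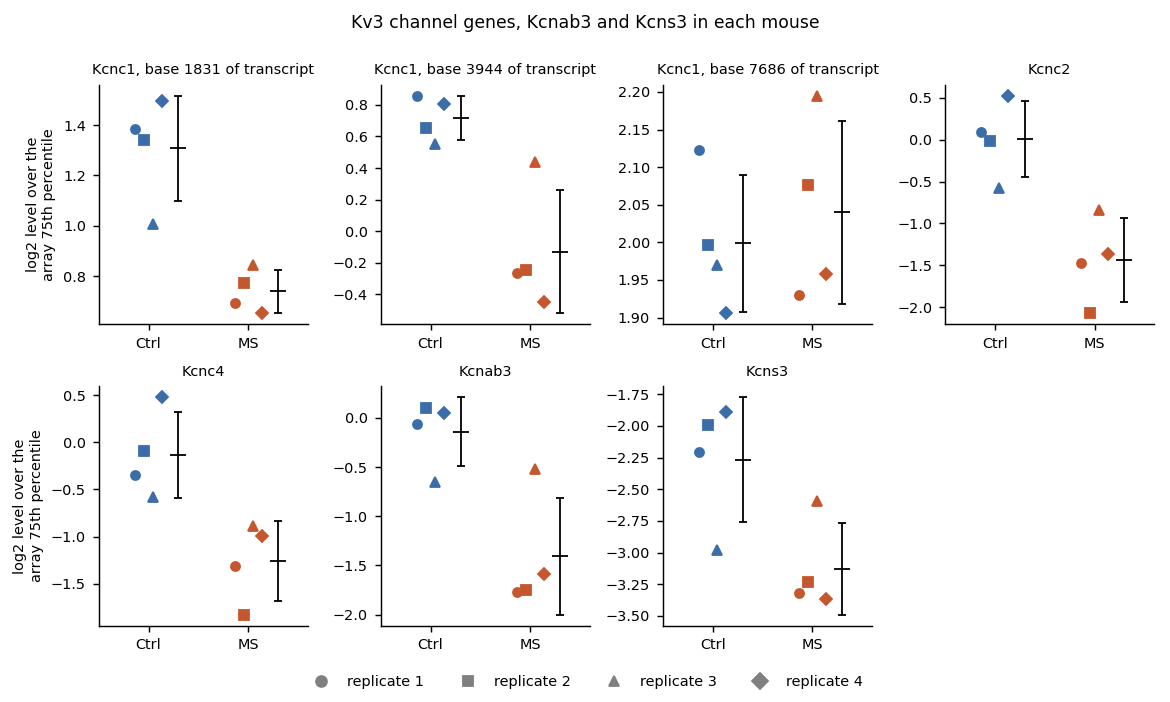
Log2 level relative to the array's 75th percentile (y axis, scaled per panel) in control and MS mice (x axis) for the probes of Kcnc1, Kcnc2, Kcnc4, Kcnab3 and Kcns3, with 1 point per mouse and bars for the mean and SD (n = 4). The groups are apart for Kcnc2, Kcnc4 and the Kcnc1 probes at bases 1831 and 3944, overlap for the Kcnc1 probe at base 7686, and MS replicate 3 lies among the controls for Kcnab3.

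Kcnc2, Kcnc4 and, at 2 of its 3 probes, Kcnc1 were lower in sign together, and their promoters are shown from RefSeq on build GRCm38.p6, 300 bases around the annotated start. Capitals mark matches on either strand to the GC box GGGCGG and the CCAAT box CCAAT. The letters of the E-box CACGTG, the cAMP response element TGACGTCA, the TATA box TATAAA and the homeodomain core TAATTA were searched too and are in none of the 3 windows.
Kcnc1 promoter, chr7:46396218-46396517, plus strand: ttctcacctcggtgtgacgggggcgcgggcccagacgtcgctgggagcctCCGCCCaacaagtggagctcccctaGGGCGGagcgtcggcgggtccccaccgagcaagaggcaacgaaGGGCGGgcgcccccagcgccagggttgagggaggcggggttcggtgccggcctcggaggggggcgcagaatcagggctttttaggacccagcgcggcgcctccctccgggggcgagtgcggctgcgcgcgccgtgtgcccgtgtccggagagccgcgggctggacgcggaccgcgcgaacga
Kcnc2 promoter, chr10:112269767-112270066, plus strand: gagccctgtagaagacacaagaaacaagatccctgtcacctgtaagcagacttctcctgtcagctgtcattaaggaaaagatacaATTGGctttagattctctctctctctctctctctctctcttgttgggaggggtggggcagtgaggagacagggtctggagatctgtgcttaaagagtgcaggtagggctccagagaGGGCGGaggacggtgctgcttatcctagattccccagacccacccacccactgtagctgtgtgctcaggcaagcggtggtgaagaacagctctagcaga
Kcnc4 promoter, chr3:107458849-107459148, minus strand: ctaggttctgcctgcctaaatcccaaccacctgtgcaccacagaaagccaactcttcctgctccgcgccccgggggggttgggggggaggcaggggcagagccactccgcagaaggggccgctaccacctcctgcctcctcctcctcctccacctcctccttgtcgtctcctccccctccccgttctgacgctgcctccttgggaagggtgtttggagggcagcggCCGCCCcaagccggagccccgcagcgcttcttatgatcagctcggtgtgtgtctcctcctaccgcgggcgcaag

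The Kcnc1 window holds 3 GC boxes and 41 CpG dinucleotides, at 74.7% G or C. Kcnc4 has 1 GC box and 17 CpG dinucleotides. The first of the 4 entries of Kcnc2 has 1 GC box, 1 CCAAT box and 3 CpG dinucleotides, at 52.7% G or C, which is the median of all promoters of this length, while their median number of CpG dinucleotides is 7. A GC box is in 35.7% of all 32851 promoters and in 47.9% of the 94 entries found for 69 channel genes. The CCAAT box is in 37.4% and 30.9%, the TATA box in 13.6% and 5.32%, the E-box in 7.15% and 7.45%, and the cAMP response element (1.79% of all) and the homeodomain core (5.29% of all) are in 0 of the 94. A match is a string of letters and does not show binding.

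Among the other voltage-gated alpha subunits, differences ran both ways and were smaller. In the Kcna (Kv1) subfamily 5 of 7 tested genes were higher in sign. Kcna1, the subunit of low-threshold currents in axons, had levels of 4.44, 4.42, 4.67 and 4.20 in control mice and 4.62, 4.86, 4.82 and 4.71 in MS mice. Only MS replicate 1 lay below a control, replicate 3, and the difference was 0.32 (SE 0.11, limma adjusted p = 0.249). Kcna2 differed by -0.15 (SE 0.12) and Kcna4, an A-type subunit, by 0.11 (SE 0.10). Kcna7 was at 0.03 (SE 0.13) on 1 probe and at -0.23 (SE 0.13) on the other. Kcna5 was noted after its value was seen as the highest difference among the brightest probes of the family. It was at 0.56 (SE 0.20, limma adjusted p = 0.269), but its second probe gave 0.10 (SE 0.13). Control replicate 4 was its lowest value (0.32, beside 0.93 to 1.101 in the other controls). Kcna6, also noted afterwards, was lower in sign on all 3 of its probes, at -0.16 (SE 0.10) for the brightest and -0.25 (SE 0.10) and -0.53 (SE 0.21) for the others.

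Kcnd3 (Kv4.3), which carries somatodendritic A-type current in many interneurons, had levels of 3.60, 3.68, 3.35 and 3.67 in control mice and 3.31, 3.14, 3.34 and 3.21 in MS mice. Its control and MS values were apart by a narrow margin, and the difference was -0.33 (SE 0.09, limma adjusted p = 0.19). The second probe of Kcnd3 gave -0.41 (SE 0.21), with overlap. Kcnd2 (Kv4.2), the main A-type subunit of spiny neurons, was at 0.15 (SE 0.11). Kcnd1 was at -0.06 (SE 0.11). Kcnb2 (Kv2.2), a delayed rectifier, was at -0.24 (SE 0.13).

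The Kcnq (Kv7) genes encode subunits of the M-current that muscarinic receptors turn off. Kcnq5 had levels of 0.66, 0.42, 0.61 and 0.33 in control mice and 0.67, 0.95, 0.69 and 0.83 in MS mice. Every MS mouse exceeded every control, by little in replicates 1 and 3, and the difference was 0.28 (SE 0.10, limma adjusted p = 0.281). The other probes of Kcnq5 gave 0.36 (SE 0.13), which was 0.23 with normexp, and 0.14 (SE 0.14), with overlap. Kcnq3, another subunit of the M-current, differed by 0.14 (SE 0.13).

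In the Kcnh family (EAG, ERG and ELK channels) 4 of 8 genes were lower and 4 higher in sign. Kcnh2 (ERG1), which carries the cardiac repolarising current and is also expressed in brain, had levels of -0.44, -0.67, -0.82 and -0.64 in control mice and -1.20, -1.17, -0.86 and -1.13 in MS mice. The highest MS value, replicate 3, was just under the lowest control, replicate 3, and the difference was -0.45 (SE 0.11, limma adjusted p = 0.138). Kcnh3 (ELK2), a channel enriched in the forebrain, had levels of 5.02, 4.96, 5.04 and 4.51 in control mice and 5.14, 5.15, 5.29 and 5.12 in MS mice. All MS mice exceeded all controls, but 1 control, replicate 4, was far below the others, and the difference of 0.29 (SE 0.12, limma adjusted p = 0.34) was 0.17 without it. Kcnh1 (EAG1) was at 0.30 (SE 0.11, limma adjusted p = 0.264). Kcnh6 was at -0.57 (SE 0.34) on 1 probe and 0.07 (SE 0.29) on the other, both dim and above background on 7 and 5 of 8 arrays. The first was -0.23 without MS replicate 3 or in the deposited values, and -0.20 with normexp.

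Silent modifier subunits (Kcnf, Kcng, Kcns and Kcnv) do not form channels alone and join Kv2 subunits. Kcns2 was higher in sign without overlap, with values from -0.57 to -0.25 in controls and from -0.17 to -0.07 in MS mice and a difference of 0.23 (SE 0.09, limma adjusted p = 0.291). Kcns3, noted after its values were seen, had levels of -2.21, -1.99, -2.98 and -1.89 in control mice and -3.32, -3.23, -2.59 and -3.37 in MS mice. All MS mice but replicate 3 lay below all controls, control replicate 3 was lowest of its group, and the difference was -0.86 (SE 0.26, limma adjusted p = 0.212). With normexp it was -0.45, and the deposited values gave -0.54. Kcnv1, also noted afterwards, was at 0.37 (SE 0.15, limma adjusted p = 0.329), with control replicate 4 lowest, and at 0.23 without that mouse.

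Auxiliary subunits were lower in sign in 7 of 10 cases. Kcnab3, a cytoplasmic beta subunit of Kv1 channels, had levels of -0.06, 0.10, -0.65 and 0.05 in control mice and -1.77, -1.75, -0.52 and -1.58 in MS mice. MS replicates 1, 2 and 4 were far below all controls, whereas MS replicate 3 was above control replicate 3. The difference of -1.27 (SE 0.29, limma adjusted p = 0.131) was the second largest of the family in size, and -1.56 without MS replicate 3. The other beta subunits were at 0.29 (SE 0.15) for Kcnab1 and -0.27 (SE 0.12) for Kcnab2 (limma adjusted p = 0.341). KChIP proteins bind Kv4 channels and raise their surface level. Kcnip4 had levels of 3.07, 3.20, 2.97 and 3.18 in control mice and 2.92, 2.95, 2.69 and 2.92 in MS mice. Its groups were apart by a narrow margin, MS replicate 3 was lowest, and the difference was -0.24 (SE 0.09, limma adjusted p = 0.281). Kcnip1 was at -0.37 (SE 0.21) and Kcnip2 at 0.21 (SE 0.14). For Kcnip3 the brightest probe gave 0.23 (SE 0.13), the dim one -0.06 (SE 0.24). Kcnmb4, the neuronal beta subunit of BK channels, differed by -0.10 (SE 0.14).

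Calcium- and sodium-activated channels, grouped here with Kcnu1, showed smaller differences, and 4 of these 6 genes were higher in sign. Kcnma1, the pore of BK channels, was at 0.27 (SE 0.13) on its brightest probe. At base 5689 its levels were -0.30, -0.18, -0.17 and -0.47 in control mice and -0.15, -0.09, 0.19 and 0.07 in MS mice. These groups were apart by a narrow margin, with a difference of 0.28 (SE 0.10, limma adjusted p = 0.282), while the third probe gave 0.09 (SE 0.08). Kcnn3 (SK3), a channel of the afterhyperpolarisation, was at 0.18 (SE 0.10) on the brightest probe and at 0.32 (SE 0.10, limma adjusted p = 0.217) on the other. The latter ran from -2.36 to -2.11 in controls and from -2.09 to -1.69 in MS mice, and its difference was 0.17 with normexp. Kcnn2 (SK2) was at 0.11 (SE 0.09) and Kcnt1, a sodium-activated channel, at 0.13 (SE 0.10).

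Of the inward rectifiers, 6 of 13 tested genes were lower and 7 higher in sign. Kcnj2 (Kir2.1) and Kcnj4 (Kir2.3), strong rectifiers of neurons, were both higher in sign. Kcnj2 had levels of -2.16, -1.89, -2.30 and -2.25 in control mice and -1.74, -1.53, -1.84 and -1.76 in MS mice. All MS mice exceeded all controls, with control replicate 2 nearest, and the difference was 0.43 (SE 0.11, limma adjusted p = 0.156), or 1.35-fold. With normexp background correction it was 0.24. Kcnj4 had levels of 5.36, 5.44, 5.59 and 5.05 in control mice and 5.46, 5.77, 5.74 and 5.72 in MS mice. MS replicate 1 lay among the controls, control replicate 4 was lowest, and the difference was 0.32 (SE 0.12, limma adjusted p = 0.308). Kcnj12 (Kir2.2), of the same group, was at 0.12 (SE 0.11).

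Kcnj10 (Kir4.1), the potassium-buffering channel of astrocytes and oligodendrocytes, had levels of 4.75, 4.76, 4.64 and 4.95 in control mice and 4.34, 4.48, 4.62 and 4.46 in MS mice. The groups were barely apart, with MS replicate 3 just under control replicate 3, and the difference was -0.30 (SE 0.09, limma adjusted p = 0.205). Its partner Kcnj16 (Kir5.1) had levels of 0.58, 0.84, 0.24 and 1.19 in control mice and -0.16, 0.12, 0.53 and -0.27 in MS mice. Here MS replicate 3 lay among the controls and control replicate 3 was lowest of its group, and the difference was -0.66 (SE 0.23, limma adjusted p = 0.267). Of the channels gated by G proteins (Kir3), Kcnj5 was the only one whose groups were apart, with levels of -1.90, -1.65, -1.86 and -1.24 in control mice and -2.38, -2.01, -2.39 and -3.16 in MS mice. It was highest in control replicate 4 and lowest in MS replicate 4, and the difference was -0.82 (SE 0.25, limma adjusted p = 0.201). With normexp it was -0.48 and passed the threshold. Kcnj3 was at -0.26 (SE 0.13), Kcnj6 at 0.12 (SE 0.12) and Kcnj9 at -0.13 (SE 0.10). The pores of ATP-sensitive channels were at 0.23 (SE 0.16) for Kcnj8 and 0.02 (SE 0.10) for Kcnj11, whose second probe gave -0.20 (SE 0.16). Kcnj14 (Kir2.4) was at -0.08 (SE 0.17) on its brightest probe and at -1.19 (SE 0.39, limma adjusted p = 0.243) on a dim one, where the groups were apart but control replicate 2 (-2.41) stood far above the other controls (-4.36 to -3.86). Without that mouse the difference at this probe was -0.77, and with normexp -0.36 and in the deposited values -0.43.

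Channels with paired pore domains (K2P, Kcnk) were lower in sign in 7 of 11 cases. Kcnk10 (TREK-2), a channel opened by stretch and lipids, had levels of -0.92, -0.70, -0.84 and -0.24 in control mice and -1.25, -1.70, -1.09 and -1.29 in MS mice. The groups did not overlap, control replicate 4 was far above the others, and the difference was -0.65 (SE 0.18, limma adjusted p = 0.172), and -0.51 without control replicate 4. Kcnk3 (TASK-1), an acid-sensitive leak channel, had levels of -0.41, -0.16, -0.60 and -0.21 in control mice and -0.84, -0.92, -0.45 and -0.81 in MS mice. MS replicate 3 lay among the controls, and the difference was -0.41 (SE 0.13, limma adjusted p = 0.231). Kcnk1 (TWIK-1), which astrocytes express strongly, was at 0.03 (SE 0.09), Kcnk2 (TREK-1) at 0.08 (SE 0.15) and Kcnk13 at 0.08 (SE 0.09). For these genes the SE exceeded the difference.

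For the remaining tested genes only differences and their SE are given. Of the voltage-gated genes, Kcna3 was at 0.02 (SE 0.13), Kcnh4 at 0.15 (SE 0.15), Kcnh5 at 0.22 (SE 0.11), Kcnh7 at -0.07 (SE 0.25) and Kcnh8 at -0.47 (SE 0.27). The other probe of Kcnh4 was higher, and the mean over its 2 probes was 0.37. Of the modifiers, Kcnf1 was at -0.03 (SE 0.10), Kcng1 at 0.15 (SE 0.13), Kcng2 at -0.16 (SE 0.14), Kcng3 at 0.37 (SE 0.17) and Kcns1 at -0.44 (SE 0.32). Among K2P genes, Kcnk12 was at -0.30 (SE 0.14), Kcnk15 at -0.16 (SE 0.30), Kcnk16 at -0.25 (SE 0.19), Kcnk4 at -0.13 (SE 0.09), Kcnk6 at -0.07 (SE 0.10) and Kcnk7 at 0.34 (SE 0.28). Kcnj13 was at 0.08 (SE 0.16), Kcnmb2 at -0.59 (SE 0.28), Kcne1l at -0.01 (SE 0.11), Kcnt2 at -0.18 (SE 0.16) and Kcnu1 at -0.05 (SE 0.12). Their brightest probes all had an unadjusted limma p over 0.05. Several of these values moved by more than 1.5 times when 1 mouse was left out or the background was treated differently. Kcns1 was at -0.09 without control replicate 3, Kcnk7 at 0.05 without MS replicate 3 and Kcnk16 at -0.09 without control replicate 4. Kcnh8 was at -0.30 without control replicate 4 and -0.28 without MS replicate 2, Kcnmb2 at -0.37 without control replicate 4 and -0.39 without MS replicate 1, and Kcnk12 at -0.20 without MS replicate 4. With normexp, Kcng3 was at 0.16, Kcns1 at -0.20, Kcnh8 at -0.20, Kcnk16 at -0.11, Kcnk7 at 0.07 and Kcnmb2 at -0.16. Of the genes described before, Kcnab1 was at 0.18, Kcnip2 at 0.09, Kcnip3 at 0.12 and Kcnb2 at -0.16 without control replicate 4, Kcnma1 at 0.17 without MS replicate 3, Kcnj3 at -0.15 with normexp and Kcnj8 at 0.05 with normexp. Kcnrg, a regulator of Kv channels noted after its values were seen, was at -0.22 (SE 0.19) on its brightest probe, which was -0.07 without control replicate 4, and at -0.52 (SE 0.20) on the other (limma adjusted p = 0.303).

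**Figure D3:**
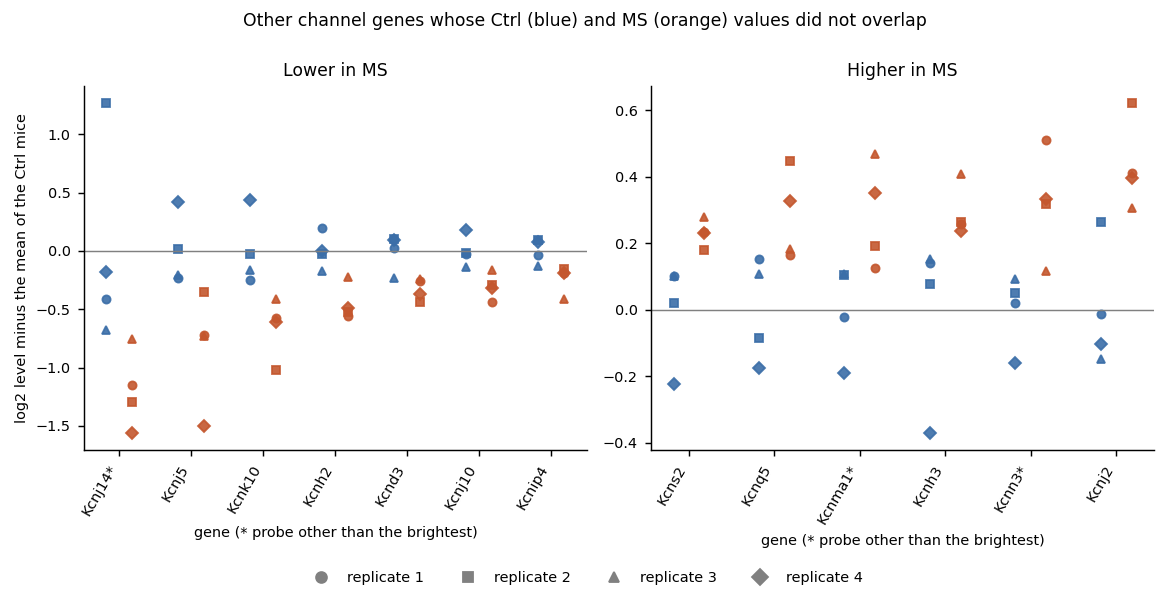
Log2 level minus the mean of the control mice (y axis) for reported channel genes outside Kv3 whose groups did not overlap and whose unadjusted p was under 0.05 (x axis), 1 point per mouse, blue for control and orange for MS, with shapes for replicates. Differences run from -1.19 for a dim probe of Kcnj14 to 0.43 for Kcnj2, and control replicate 4 lies lowest for Kcns2, Kcnq5, Kcnma1, Kcnh3 and Kcnn3.

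There were 17 genes with no tested probe. Of these, Kcne1, Kcne2, Kcne3, Kcnj1, Kcnk18, Kcnk5, Kcnmb1, Kcnmb3 and Kcnv2 were not well above background on any array. Kcna10, Kcne4, Kcng4, Kcnj15, Kcnk9, Kcnn1 and Kcnn4 were above it on at most 2 arrays. Kcnq1 was above background on 0 control arrays and, at 1 of its probes, on 3 MS arrays, from -6.03 to -2.39 beside -5.45 to -5.33 in controls. In the deposited log2 values, which held this probe, the difference was 0.43 (limma adjusted p = 0.393).

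The order of the mice was alike across genes. Of the 13 genes lower in MS mice at an unadjusted p under 0.05, MS replicate 3 was the highest MS mouse in 10, control replicate 3 the lowest control in 11 and control replicate 4 the highest control in 8. Of the 9 genes higher in MS mice, control replicate 4 was the lowest of all 8 mice in 7, and MS replicate 1 the lowest MS mouse in 6. Without control replicate 4 the count of higher genes was 6 and that of lower genes 11. It was 6 higher genes without control replicate 2, 3 without MS replicate 2 or MS replicate 4, 5 without MS replicate 3, and 15 without control replicate 3. The count of lower genes was 12 without control replicate 2, 14 without MS replicate 2 or MS replicate 4, and 13 without MS replicate 3. Without control replicate 3 it was 18. Matching counts over all tested probes were not made with a mouse left out, so these shifts cannot be called particular to channel genes. Within the slide, where every row had 2 mice per group and every column 1 per group, all 13 lower genes kept their sign in both rows and all 4 columns. Of the 9 higher genes, all kept it in both rows and 4 in all columns, while Kcna1, Kcna5, Kcnh1, Kcnj4 and Kcnv1 turned in the second column. A gene whose groups do not overlap must keep its sign at every position. This was so for 8 of the 13 lower genes and for the 4 higher genes that kept it in all columns. Their signs therefore test nothing about position, and Kcnc2 and Kcnj2, whose values follow, are among them. Kcnc2 differed by -1.81 and -1.08 in the rows and by -0.93, -0.90, -1.35 and -2.60 in the columns. Kcnj2 differed by 0.39 and 0.48 in the rows and by 0.32, 0.56, 0.13 and 0.73 in the columns.

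Markers of cell types differed beside the channel genes. Genes of pallidal neurons, which are fast-firing and lie next to the NAc, were lower in sign in 11 of 13 tested cases (49.1% of all probes were), 8 of them without overlap (against 4.8% of all probes), and their summed level on the linear scale was 240 to 258 times the array's 75th percentile in controls and 227 to 244 in MS mice. Npas1, a pallidal transcription factor, had log2 levels of -0.55, -0.56, -1.09 and 0.03 in control mice and -3.27, -3.47, -1.87 and -2.60 in MS mice. Pvalb, a calcium-binding protein of fast-spiking cells, had log2 levels of 2.31, 2.09, 1.55 and 2.28 in control mice and -0.92, -0.90, 1.46 and 0.33 in MS mice. For both, MS replicate 3 was the highest MS mouse and control replicate 3 the lowest control, as for Kcnc2 and Kcnab3. Vamp1, a synaptic vesicle protein of the same list, had 2.34, 2.45, 1.68 and 2.48 in control mice and 0.74, 0.65, 1.44 and 1.15 in MS mice, in the same order at these places. Over the 13 tested genes of the list, MS replicate 3 was the highest MS mouse in only 6 and control replicate 3 the lowest control in 7. The pan-GABA genes of that list, Gad1 and Slc32a1, were at -0.03 (SE 0.09) and -0.07 (SE 0.07). Summed levels mostly follow the brightest probe of a list, here Slc32a1 (log2 levels of 7.28 to 7.51), and say little about dimmer genes such as Npas1. In the sums given below, that probe is Aldoc for astrocytes (7.76 to 8.12) and Eya1 for fast-spiking interneurons (4.47 to 4.75). The study lists Npas1, Pvalb, Vamp1, Lhx8, Lhx6 and Grin2d as changed, from these same mice. Of these Lhx6 was higher in sign here, at 0.13 (SE 0.10, limma adjusted p = 0.619) with overlap.

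Genes of medium spiny neurons, the defining markers of the labelled tissue, were all tested and were higher in sign in 15 of 15 cases, 8 with an unadjusted p under 0.05 (against 6.47% of all probes). Only 2 of the 15, Gng7 and Rarb, were without overlap (against 3.9% of all probes). The summed level of the 15 genes was 813 to 1220 in controls and 1152 to 1386 in MS mice. Control replicate 4 was the lowest of all 8 mice for 14 of the 15 and MS replicate 1 the lowest MS mouse for 13. Ppp1r1b (DARPP-32) had log2 levels of 7.595, 7.58, 7.73 and 6.96 in control mice and 7.61, 7.80, 7.70 and 7.75 in MS mice. Of the astrocyte genes 8 of 10 were lower in sign, 4 of them without overlap (against 4.8% of all probes), and summed to 281 to 324 in controls and 255 to 276 in MS mice. Slc6a11, a GABA transporter of astrocytes, had log2 levels of 0.67, 0.90, 0.61 and 1.44 in control mice and 0.27, -0.26, -0.27 and -0.17 in MS mice. It is in the study's list as well, and its difference of -1.01 was exceeded in size only by that of Agt among these astrocyte genes. Other astrocyte genes differed far less. The 2 higher in sign were Slc1a2 at 0.16 (SE 0.08) and Aqp4 at 0.06 (SE 0.13). Slc1a3 was at -0.12 (SE 0.097) and Gja1 at -0.16 (SE 0.097), and all 4 overlapped. Of hypothalamic and preoptic genes 8 of 9 were lower in sign, with sums of 35.0 to 49.6 in controls and 21.2 to 29.5 in MS mice. Lhx5 of this list, a transcription factor that the study also lists, was the 1 probe of the array that passed the limma threshold, at -3.53 (SE 0.24, limma adjusted p = 0.00752). The part of these cell type markers in the differences of the channel genes was not tested. In punches of whole tissue, fewer cells of a type and less RNA per cell cannot be told apart.

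**Figure D4:**
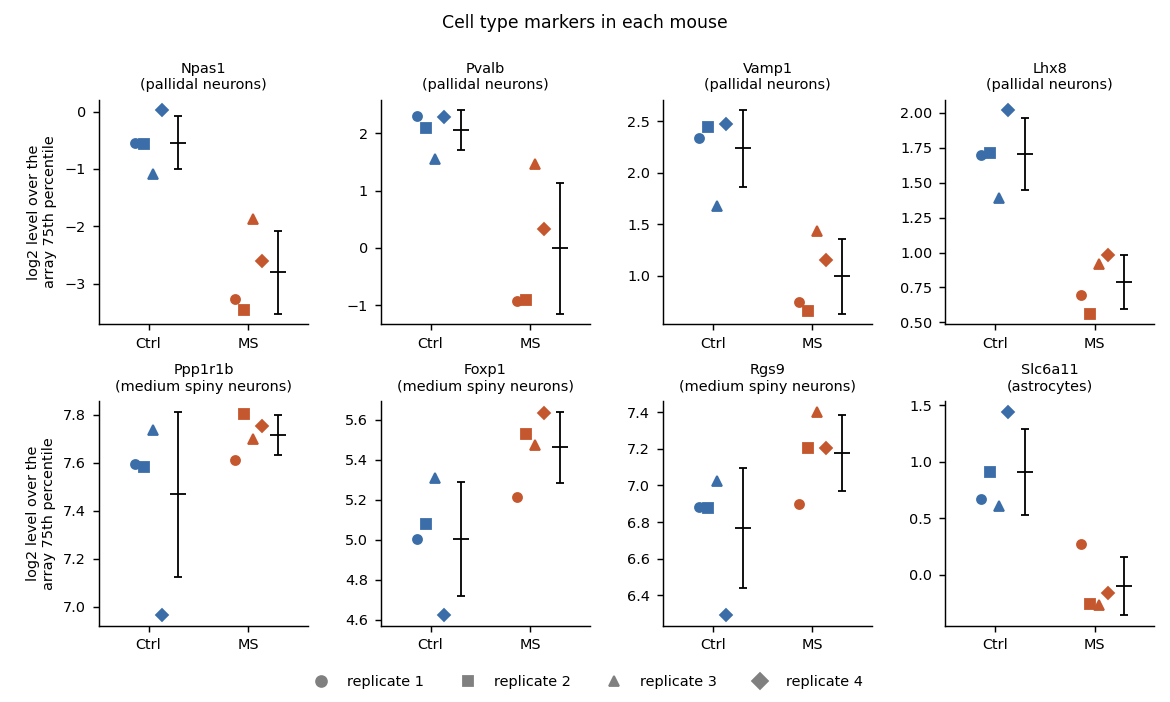
Log2 level relative to the array's 75th percentile (y axis, scaled per panel) of 8 cell type markers in control and MS mice (x axis), 1 point per mouse, bars for the mean and SD (n = 4), shapes for replicates. MS replicate 3 is the highest MS mouse for Npas1, Pvalb and Vamp1, and control replicate 4 is the lowest mouse for Ppp1r1b, Foxp1 and Rgs9.

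Of the fast-spiking interneuron genes 4 of 5 were lower in sign (sums of 27.8 to 31.8 in controls and 24.6 to 27.5 in MS mice), but Pvalb, Sox6 and Syt2 are also in the pallidal list, and of the others Eya1 was at -0.03 (SE 0.08) and Pthlh at 0.31 (SE 0.14). Lower in sign were also 6 of 6 genes of somatostatin and other interneurons (36.0 to 51.4 against 33.4 to 44.8), 5 of 6 of cholinergic neurons (8.201 to 9.96 against 7.31 to 9.53) and 5 of 6 of thalamic and septal neurons (7.69 to 9.96 against 7.09 to 8.70). In the somatostatin list only Calb2 was without overlap, at -1.43 (SE 0.36), and the rest ran from -0.18 to -0.01. Of the cholinergic genes only Gbx2, which is also in the pallidal list, was without overlap, at -1.17 (SE 0.30). The others overlapped and ran from -0.13 to 0.07. Among glia, 8 of 8 genes of oligodendrocytes (179 to 241 against 166 to 225) and 8 of 8 of microglia (54.0 to 68.3 against 51.2 to 58.9) were lower in sign, all with overlap. Genes of vessels and pericytes were higher in sign in 7 of 8 cases (19.2 to 20.2 against 19.3 to 22.1) and those of choroid plexus and ependyma in 3 of 4 (5.32 to 5.77 against 5.25 to 6.12). Of 7 genes of cortical excitatory neurons 4 were tested, 2 of them lower in sign, with sums of 0.57 to 2.30 in controls and 0.35 to 2.50 in MS mice. Slc17a7 and Neurod6 of that list had no tested probe, nor had Ttr of choroid plexus or Avp, Otp and Sim1 of the hypothalamus.

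Of 26 genes of channel complexes outside the Kcn names 23 were tested. Of these, 9 were lower and 14 higher in sign, with a median of 0.018, and by unadjusted p 7 were lower and 1 higher (against 7.65% and 6.47% of all probes). Dpp6, the Kv4 partner that speeds A-type current, had levels of 3.69, 3.65, 3.58 and 3.81 in control mice and 3.36, 3.19, 3.33 and 3.34 in MS mice. All MS mice lay below all controls, and the difference was -0.38 (SE 0.08, limma adjusted p = 0.104). The study lists it as changed. Its homologue Dpp10 was at 0.11 (SE 0.09). Of the HCN channels, which pass sodium and potassium on hyperpolarisation, Hcn3 was at -0.62 (SE 0.17) and Hcn2 at -0.07 (SE 0.11). Lrrc55, an accessory subunit of BK channels, was at -0.76 (SE 0.29). Among proteins that place Kv1 channels beside the node, Cntn2 was at -0.35 (SE 0.10), Cntnap2 at -0.15 (SE 0.06) and Cntnap1 at 0.10 (SE 0.16), and Amigo1, which binds Kv2 channels, was at -0.24 (SE 0.09). The subunit Abcc9 of ATP-sensitive channels was at 0.44 (SE 0.17) and Abcc8 at -0.03 (SE 0.12). None of the 23 passed the limma threshold over all probes.

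**Figure D5:**
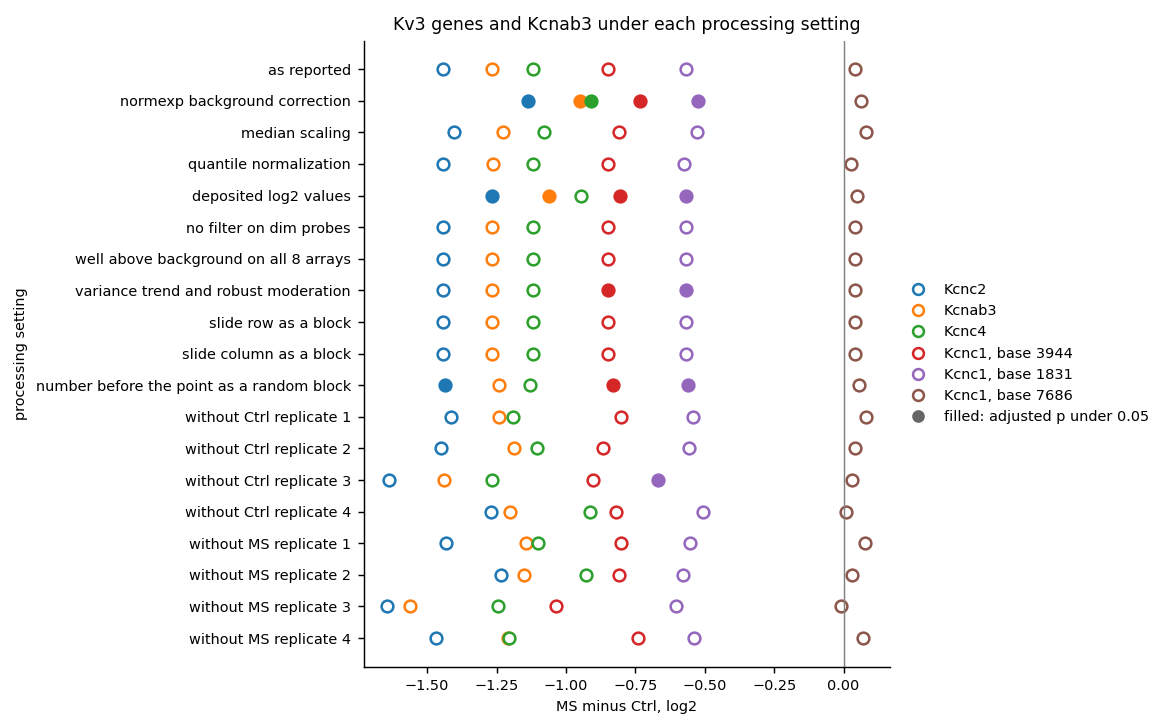
Difference between MS and control mice on the log2 scale (x axis) for the Kv3 genes Kcnc1, Kcnc2 and Kcnc4 and for Kcnab3 under each processing setting (y axis), with filled points where the adjusted p was under 0.05. The differences of Kcnc2 lie between -1.64 and -1.14, and the Kcnc1 probe at base 7686 stays near 0.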

How the data were processed

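RNA from the nucleus accumbens of 8 mice was labelled with Cy3 and hybridised to 1-colour Agilent arrays, 1 mouse per array. The authors deposited the scanner output, from Feature Extraction 10.10.1.1 with probes placed on mm9, in which each spot has a processed signal as intensity after background subtraction. They also deposited a log2 table of 31261 probes, made with limma per the submitters' notes; it follows the log2 mean signal, and its normalization between arrays is not given in the sources used here. All 8 value columns of that table were matched to samples. Headers and methods name different array designs, and the headers were followed.

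Control spots and spots with outlier flags were dropped, log2 intensities were centred on the 75th percentile of each array, and spots of a probe were averaged. Probes with a value on all 8 arrays and well above background on at least 4 were fitted with limma 3.58.1 (lmFit and eBayes, R 4.3.3), MS minus control, with Benjamini-Hochberg adjustment over all 33106 probes and a threshold of 0.05. The fit was tested on simulated data, with changes larger than any channel difference reported here, so smaller differences were not covered. Precision is limited by 4 arrays per group. Groups came from the sample labels.

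Full values are given for channel genes with a probe whose groups did not overlap at an unadjusted p under 0.05, for up to 12 lower and 12 higher genes, for a set of channel genes named whatever their values, and for genes whose probes differed in sign. Results for some genes are not reported here, though counts over the family include them. Any other gene was singled out after its values were seen. The channel genes, marker lists and partner list were chosen with earlier results of these data known. Alternatives were normexp background correction (offset 50), median scaling, quantile normalization, the deposited log2 values, other filters on dim probes, a variance trend with robust moderation, slide row, slide column or the number before the point of the animal label as a block, leaving out each mouse, averaging all tested probes per gene and, added after seeing the data, leaving out the Kcnc genes. RefSeq promoter entries (GRCm38.p6) were found for 69 of 94 channel genes.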

Additional observations from a re-analysis of the deposited data

Results flagged for a closer look

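In 8 of the 108 groups of 4 mice examined for the named channel genes, 1 mouse stood apart from the other mice of its group, with a gap to the nearest mouse that passed Dixon's critical value. Chance alone gives about 1 in 20 such groups. MS replicate 3 stood apart for 3 genes. It was highest for Kcnab3, at -0.52 with the nearest MS mouse at -1.58, and for Kcnh3, at 5.29 with the nearest at 5.15. It was lowest for Kcnip4, at 2.69 with the nearest at 2.92. Control replicate 4 was lowest for Kcnh3, at 4.51 beside 4.96, and for the Kcnq5 probe at base 2851, at -2.27 beside -1.94. MS replicate 1 was lowest for Kcnj4, at 5.46 beside 5.72. Control replicate 3 was lowest for Kcnj3, at -3.06 beside -2.73, and control replicate 1 for the Kcnq5 probe at base 1412, at -4.15 beside -3.93. All values are log2 levels over the 75th percentile of the array.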

How the results depend on the processing

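The number of probes past limma's adjusted threshold depended on the processing. Over all probes it was 1 as reported, 488 with normexp, 375 in the deposited log2 values, 507 with robust moderation on a variance trend, 453 with the number before the point as a random block (consensus correlation -0.11), 106 with probes well above background on all 8 arrays, 85 with median scaling (79 lower and 6 higher), and 0 without a filter or with slide column as a block. Leaving out 1 mouse gave 0 to 37, the latter without control replicate 3. Among channel probes it was 0 as reported, 7 with normexp, 4 in the deposited values, 2 with the trend, 3 with the random block, and 0 to 1 with 1 mouse left out. The labels do not say that any number ties a mouse of 1 group to a mouse of the other. With slide column as a block, which pairs 1 mouse of each group, the lowest adjusted p of a channel probe was 0.23. Without the Kcnc genes the median difference was -0.014 and 0 channel probes passed in limma. That count was fixed in advance, since 0 passed with the Kcnc genes included.

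For the named genes, 952 values under an alternative kept sign and side of the threshold, 16 passed it, all from probes of Kcnc1, Kcnc2, Kcnc4, Kcnab3 and Kcnj5, and 13 changed sign. Under the filters on dim probes, the moderation and the slide row or column blocks a difference stays the same by design, so a sign could not change there. The Kcnq5 probe at base 1412 turned to -0.00101 with normexp. With the mean over probes, Kcna7 was -0.099, Kcnc1 -0.46 and Kcnj11 -0.093. With 1 mouse left out, the ranges crossed 0 for Kcna7 (-0.041 to 0.139), Kcnc1 (-0.011 to 0.082), Kcnj11 (-0.045 to 0.061), Kcnk1 (-0.027 to 0.095) and Kcnk2 (-0.00529 to 0.226). The cause was not tested. Probes near background are the least precise.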
